A study of Mus musculus with 5 samples.

Results

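The S100 genes encode small calcium-binding proteins that act mostly as dimers. Of 23284 genes in the deposited table, 10 members of the family were taken by symbol, and each symbol had 1 row. They are the neutrophil pair S100a8 and S100a9, and S100a10, S100a11, S100a4, S100a6, S100a13, S100a16, S100a1 and S100b, which tumor and stromal cells are known to make. The table holds 17 genes with an S100 family symbol in all. RNA was sequenced in 2 libraries from tumors of CXCL5-overexpressing B16F1 cells (B16F1-CXCL5) and 3 libraries from tumors of B16F1 cells without that change. Both cell types are murine melanoma cells and were grown within the skin of the flank in C57BL/6 J mice, which received no treatment. Tumors were taken at 250 to 350 mm³. The labels give no age or sex and do not state whether each library came from its own mouse, whether the overexpressing cells were 1 clone, and which promoter drives CXCL5. The comparison asks what overexpression of CXCL5, a ligand of the neutrophil receptor CXCR2, does to the primary tumor.

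An S100 protein binds calcium through a pair of EF-hand loops, opens a hydrophobic face and then grips a target protein. S100A8 and S100A9 form calprotectin, which is stored in the cytosol of neutrophils in very large amounts, binds zinc and manganese, and signals through TLR4 and RAGE when released. Wounded or inflamed epidermis also makes both. In melanoma the family is known through S100B, a marker of melanocytic and Schwann lineage cells, and through S100A4 and S100A6, which are linked to motility and stroma.

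Whole tumors were sequenced, so each value mixes melanoma cells with host cells and any adjoining skin, and more cells of a type cannot be told apart from more RNA per cell. The 12 melanocyte lineage markers were above 0 in every library, with a summed FPKM of 10450 to 11473 in B16F1-CXCL5 and 9793 to 13396 in B16F1 libraries. FPKM scales fragments to transcript length and to the size of the library, so levels of different genes can be set side by side, with less certainty for short transcripts. Cxcl5, the overexpressed gene, was at 83.7 and 85.4 FPKM in B16F1-CXCL5 libraries, against 1.86, 3.62 and 1.01 FPKM in B16F1 libraries. Steps in the low values put the depth at an estimated 26300000 to 28600000 fragments per library. B16F1 library 3 stood apart: its keratinocyte markers summed to 1224 FPKM, against 513 and 663 FPKM in the B16F1-CXCL5 libraries and 445 and 454 FPKM in B16F1 libraries 1 and 2. Its skeletal muscle markers summed to 1771 FPKM, and those of B16F1-CXCL5 library 2 to 1324 FPKM, with 524 to 585 FPKM in the other libraries.

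The members lie mostly together on chromosome 3. On GRCm38, 7 of them, S100a1, S100a13, S100a16, S100a4, S100a6, S100a8 and S100a9, fall between positions 90511034 and 90695721, a stretch of 184688 nt. S100a11 and S100a10 follow on the same chromosome between 93520488 and 93564643, and S100b is on chromosome 10 from 76253853 to 76261159. S100a8 (90668978 to 90670035, plus strand) and S100a9 (90692632 to 90695721, minus strand) point toward each other, with 22596 nt between them. The sequences before their starts are shown because these are the only members that were higher in both B16F1-CXCL5 libraries than in every B16F1 library. S100a4, from the same cluster, and S100a11, the most abundant member, are shown beside them as genes that overlapped between the groups. All are RefSeq sequences on GRCm38.p6, read 5′ to 3′ on the strand of the gene, with matches to the motifs named below in capitals.
S100a8: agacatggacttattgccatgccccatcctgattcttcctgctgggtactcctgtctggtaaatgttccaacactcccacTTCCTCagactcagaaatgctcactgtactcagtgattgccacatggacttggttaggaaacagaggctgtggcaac
S100a9: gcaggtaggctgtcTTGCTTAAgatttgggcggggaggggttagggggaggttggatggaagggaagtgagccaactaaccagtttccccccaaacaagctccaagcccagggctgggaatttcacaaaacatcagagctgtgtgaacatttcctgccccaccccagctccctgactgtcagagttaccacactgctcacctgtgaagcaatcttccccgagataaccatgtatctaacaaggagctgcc
S100a4: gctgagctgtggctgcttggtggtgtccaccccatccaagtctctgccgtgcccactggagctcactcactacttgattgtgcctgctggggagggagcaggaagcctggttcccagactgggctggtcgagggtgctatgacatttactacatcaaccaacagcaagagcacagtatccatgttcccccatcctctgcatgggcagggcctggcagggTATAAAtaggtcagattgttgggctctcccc
S100a11: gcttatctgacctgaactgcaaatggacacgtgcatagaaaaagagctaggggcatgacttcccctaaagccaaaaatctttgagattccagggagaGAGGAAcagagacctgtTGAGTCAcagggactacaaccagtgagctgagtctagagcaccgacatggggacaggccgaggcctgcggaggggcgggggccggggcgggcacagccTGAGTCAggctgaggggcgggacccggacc

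The printed stretches are chr3:90668821-90668977 for S100a8, chr3:90695722-90695971 for S100a9, chr3:90603520-90603769 for S100a4 and chr3:93520246-93520487 for S100a11. Each runs from 250 bases before the RefSeq start toward that start, and stops where GENCODE annotates an exon. Of the 10 members, 9 matched the promoter table and S100a10 did not. Motifs were searched on both strands in the full 250 bases before each start, exon bases included, and none of the matches overlapped another. The C/EBP motif TTGCNNAA matched S100a9 from base -236 to -229 and no other member, and 9.56% of 32851 promoters hold it. The PU.1 motif GAGGAA matched S100a8 at -170 to -165 and -36 to -31, S100a16 and S100a11, against 23.3% of all promoters. The S100a8 match at -36 to -31 lies within a GENCODE exon and so is not printed. TATAAA lay from -30 to -25 in S100a8, within a GENCODE exon and so not printed, and from -31 to -26 in S100a4, against 12.4% of promoters. The AP-1 motif TGANTCA matched S100a11 at -136 to -130 and -38 to -32 and also S100a16, against 6.75% of promoters. The STAT motif TTCNNNGAA matched no member window, and 7.02% of promoters hold it. A match says only that the letters are there.

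The genes of calprotectin were far higher in the B16F1-CXCL5 libraries than in the B16F1 libraries. S100a8 had 356 and 382 FPKM in B16F1-CXCL5 libraries 1 and 2, against 3.83, 6.12 and 16.2 FPKM in B16F1 libraries 1, 2 and 3. S100a9 had 314 and 344 FPKM in B16F1-CXCL5 libraries, against 3.46, 4.90 and 17.98 FPKM in B16F1 libraries. Both B16F1-CXCL5 libraries lay far above every B16F1 library for both genes, and B16F1 library 3 was the highest of its group. Among the 10 members, 1 passed as higher, S100a8, and 0 passed as lower at a limma adjusted p under 0.05, where 0.128% of the 12533 tested genes passed as higher and 0.00798% as lower. At an unadjusted p under 0.05, 2 members passed, S100a8 and S100a9, both higher, where 3.57% of the tested genes were higher and 5.39% lower.

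**Figure D1:**
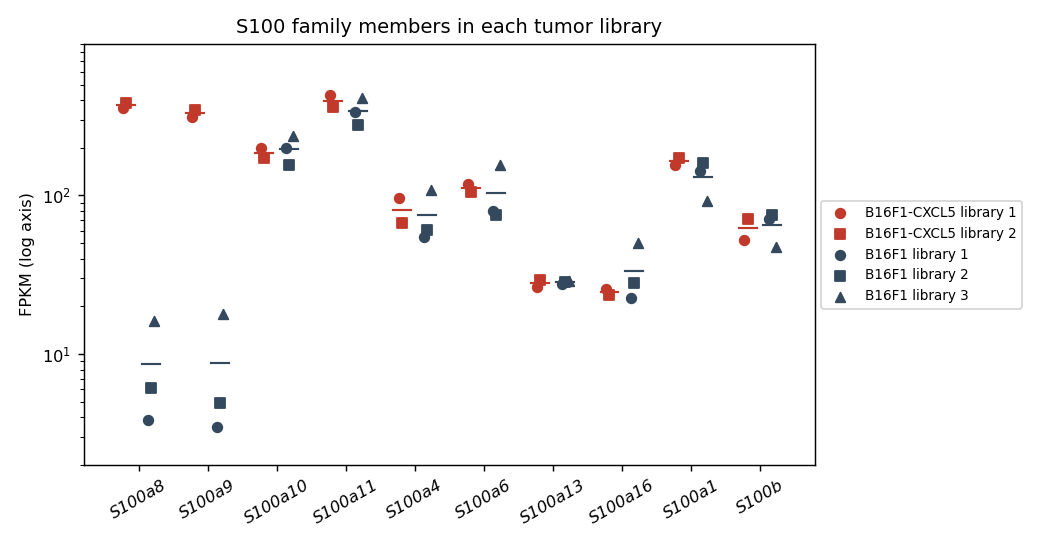
FPKM of each S100 member (log axis) in 2 B16F1-CXCL5 libraries (red, left of each gene) and 3 B16F1 libraries (dark, right), with 1 point per library and a line at the group mean. S100a8 and S100a9 lie between 314 and 382 FPKM in B16F1-CXCL5 libraries and between 3.46 and 17.98 FPKM in B16F1 libraries, while the groups overlap for the other 8 members.

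S100a8 averaged 369 ± 18.4 FPKM in B16F1-CXCL5 libraries (SD, n = 2 libraries), against 8.73 ± 6.60 FPKM in B16F1 libraries (SD, n = 3 libraries). The log2 fold change on log2(FPKM + 1) was 5.46 with a 95% interval of 4.19 to 6.73, and the limma adjusted p was 0.0403. It had the 17th smallest p of the tested genes, which makes it the last of the 17 that passed. S100a9 averaged 329 ± 21.1 FPKM in B16F1-CXCL5 and 8.78 ± 8.0 FPKM in B16F1 libraries. Its log2 fold change was 5.38 with a 95% interval of 3.89 to 6.87, and the limma adjusted p of 0.0674 did not pass. The S100a8 call ended in 4 of the 10 settings that kept every library, with limma adjusted p-values of 0.0535 to 0.0945, and when any library other than B16F1 library 3 was left out, with adjusted p-values between 0.0766 and 0.478. Without B16F1 library 3 both genes passed, with log2 fold changes of 5.98 and 6.01 and limma adjusted p-values of 0.00151 and 0.000894, where 0.251% of genes passed as higher.

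Both genes rested on many fragments in B16F1-CXCL5 libraries and on far fewer in B16F1 libraries 1 and 2. With the GENCODE transcript of 486 nt, the lowest S100a8 value, that of B16F1 library 1, corresponds to an estimated 28.8 to 48.9 fragments, and the B16F1-CXCL5 values to 2792 to 5184 fragments. The lowest S100a9 value corresponds to 29.0 to 47.3 fragments. The lower figure of each pair takes off an assumed fragment length of 200 nt, and both transcripts are short, so the FPKM values depend on how that was handled upstream. On log2(FPKM + 1), which narrows the range of low values, S100a9 covered 2.09 log2 units from its lowest to its highest B16F1 library. S100a8 covered 1.84, and these were the widest ranges of the members on that scale. Within the B16F1-CXCL5 group S100a9 and S100a8 covered 0.13 and 0.10 log2 units.

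**Figure D2:**
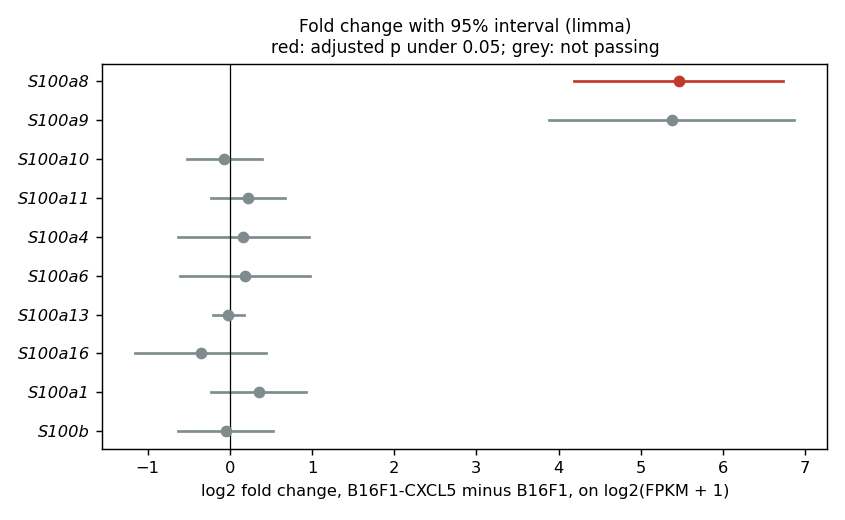
Log2 fold change of each S100 member, B16F1-CXCL5 minus B16F1 on log2(FPKM + 1), with its 95% interval from limma (n = 2 and 3 libraries). S100a8 passed (5.46), S100a9 lies beside it at 5.38 without passing, and the intervals of the other 8 members include 0.

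The subunits kept to nearly the same level as each other in every library. The ratio of S100a8 to S100a9 FPKM was 1.13 and 1.11 in B16F1-CXCL5 libraries, against 1.11, 1.25 and 0.903 in B16F1 libraries. The ratios of the groups overlapped, and the log2 ratio differed by 0.06 between groups (exact two-sided permutation p = 0.8), a difference that turned to -0.07 without B16F1 library 3. The ratio of S100a8 or S100a9 to each of the 8 other members was tested the same way, which gives 16 ratios. In all 16 the B16F1-CXCL5 libraries were both above the B16F1 libraries, by 5.26 log2 units for S100a9 over S100a1 up to 6.04 for S100a8 over S100a16. The exact two-sided permutation p was 0.1 for each, also after Benjamini-Hochberg adjustment over the 16, and 0.1 is the smallest that 10 splits of 5 libraries allow. The 16 ratios share S100a8 and S100a9 as numerators and are not independent. The difference of the pair far exceeds the ranges of the other members, so the ratios restate that difference.

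The family's make-up differed in step with these values. S100a8 and S100a9 together held 37.7% and 42.1% of the summed FPKM of the 10 members in B16F1-CXCL5 libraries, against 0.774%, 1.26% and 2.93% in B16F1 libraries. The sum of all 10 was 1776 and 1726 FPKM in B16F1-CXCL5 libraries, against 941, 872 and 1167 FPKM in B16F1 libraries. Without the pair the sums were 1106 and 999 FPKM in B16F1-CXCL5 libraries, against 934, 861 and 1133 FPKM in B16F1 libraries, which overlap. S100a8 was the gene of rank 242 and 211 of 23284 by FPKM in the B16F1-CXCL5 libraries, against ranks 9742, 8550 and 5193 in the B16F1 libraries. Within the family S100a11 was first in B16F1-CXCL5 library 1 and S100a8 in B16F1-CXCL5 library 2, while in each B16F1 library S100a8 and S100a9 filled the last places. These shares and ranks compare different genes, so they depend on how the fragment length was handled upstream for short transcripts.

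**Figure D3:**
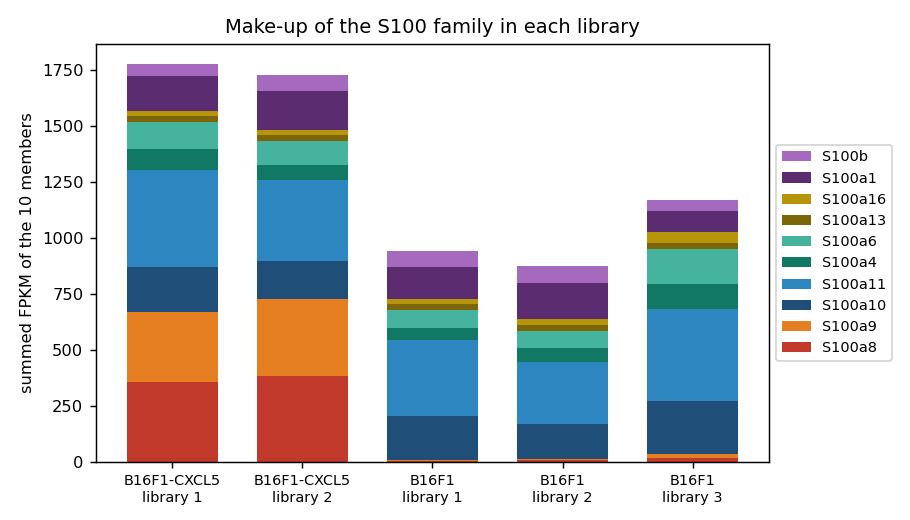
Summed FPKM of the 10 S100 members in each library, split by member. The S100a8 and S100a9 segments make up 37.7% and 42.1% of the bar in B16F1-CXCL5 libraries and 0.774% to 2.93% in B16F1 libraries.

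S100a10 and S100a11 bind annexins at membranes, S100A10 with annexin A2 and without needing calcium. They were among the most abundant members. S100a11 had 432 and 359 FPKM in B16F1-CXCL5 libraries, against 338, 278 and 412 FPKM in B16F1 libraries. S100a10 had 200.02 and 172 FPKM in B16F1-CXCL5 libraries, against 198, 156 and 238 FPKM in B16F1 libraries. The groups overlapped for both, and neither passed. The 95% interval of the log2 fold change was -0.23 to 0.67 for S100a11 and -0.52 to 0.39 for S100a10. A processed pseudogene of S100a11 is annotated on chromosome 12, so part of its fragments may have been placed by the upstream model.

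S100A4, which binds nonmuscle myosin IIA and marks motile and stromal cells, and S100A6, a partner of the ubiquitin ligase component CACYBP, varied together with B16F1 library 3. S100a4 had 95.96 and 67.1 FPKM in B16F1-CXCL5 libraries, against 55.0, 60.9 and 109 FPKM in B16F1 libraries. S100a6 had 117 and 106 FPKM in B16F1-CXCL5 libraries, against 79.6, 75.4 and 156 FPKM in B16F1 libraries. For both, B16F1 library 3 was the highest of the 5 and B16F1 libraries 1 and 2 the lowest. Neither passed, with 95% intervals of -0.63 to 0.96 and -0.61 to 0.98 log2 units. Without B16F1 library 3, S100a4, S100a6 and S100a11 did not overlap between groups, and 17.3% of tested genes were then higher and 24.8% lower without overlap. Their limma log2 fold changes in that setting were 0.46, 0.52 and 0.36, with adjusted p-values of 0.508, 0.209 and 0.520. A predicted gene, Gm42674, overlaps S100a4 on the same strand.

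S100A13, which takes part in the release of FGF1 and interleukin 1 alpha, was the steadiest member. S100a13 had 26.6 and 29.3 FPKM in B16F1-CXCL5 libraries, against 27.6, 28.4 and 28.8 FPKM in B16F1 libraries. The groups overlapped and the 95% interval of the log2 fold change, -0.21 to 0.17, was the narrowest of the 10. S100a16 had 25.7 and 23.6 FPKM in B16F1-CXCL5 libraries, against 22.6, 27.97 and 50.3 FPKM in B16F1 libraries. B16F1 library 3 was 1.99-fold above the mean of B16F1 libraries 1 and 2, and the log2 fold change of -0.35 did not pass (95% interval -1.15 to 0.44).

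S100A1, known for calcium handling in striated muscle and also made by melanocytic cells, and S100B were the members lowest in B16F1 library 3. S100a1 had 156 and 171 FPKM in B16F1-CXCL5 libraries, against 143, 159 and 92.4 FPKM in B16F1 libraries. S100b had 52.4 and 71.5 FPKM in B16F1-CXCL5 libraries, against 71.0, 75.4 and 47.6 FPKM in B16F1 libraries. Both overlapped between the groups and neither passed, with 95% intervals of -0.23 to 0.93 for S100a1 and -0.63 to 0.53 log2 units for S100b. S100a1 begins 42 nt from S100a13 on the opposite strand and S100b overlaps Dip2a on the opposite strand, and the strand setting of the counting is not given in the sources used here.

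Marker lists moved with several of these values, and their part in them was not tested. In B16F1 library 3, 8 of the 10 members had the highest value of the 3 B16F1 libraries and 2, S100a1 and S100b, the lowest. The 8 include S100a13, at 27.6, 28.4 and 28.8 FPKM in B16F1 libraries 1, 2 and 3. The share of all tested genes ordered this way was not computed, so no trait of the members is read from B16F1 library 3. That library was also the highest of the 5 for keratinocyte markers, for activated keratinocyte genes (281 FPKM) and for fibroblast markers (1978 FPKM, against 1687 and 1899 FPKM in B16F1-CXCL5 and 1168 and 968 FPKM in B16F1 libraries 1 and 2). It was the highest for adipocyte markers too, at 360 FPKM, against 238 and 249 FPKM in B16F1-CXCL5 and 204 and 212 FPKM in B16F1 libraries 1 and 2. B16F1 library 3 was the lowest of the 5 for melanocyte lineage markers, at 9793 FPKM. S100a1 was lowest in the library with the highest sum of skeletal muscle markers, at 92.4 FPKM beside 1771 FPKM, and highest in the library with the next highest sum, B16F1-CXCL5 library 2, at 171 FPKM beside 1324 FPKM. Between the groups 0 members of the keratinocyte, melanocyte lineage, fibroblast, skeletal muscle, macrophage or adipocyte lists passed limma, also unadjusted, of 12, 12, 10, 9, 12 and 7 tested. Of 7 tested Schwann cell markers 0 passed and 1 had an unadjusted p under 0.05, where 8.97% of all tested genes had one, and all 9 lymphocyte markers found were below the filter. By mean FPKM these lists were led by Krt10 and Krt14, Dct and Mlana, Col1a1 and Col1a2, Acta1 and Ckm, Lyz2 and C1qb, Fabp4 and Cfd, Mbp and Cdh19, and Cd79a and Cd4, and the activated keratinocyte list by Krt17 and Krt16.

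**Figure D4:**
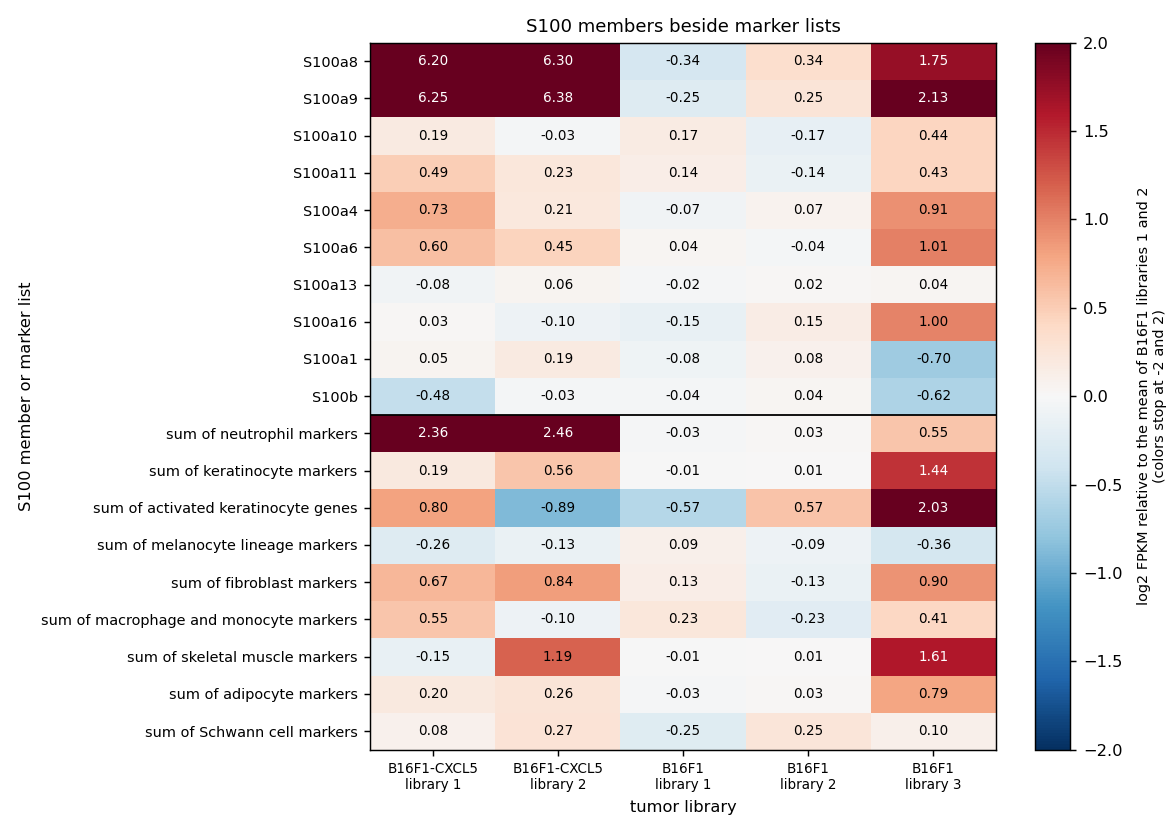
Log2 FPKM of each S100 member and log2 of the summed FPKM of each marker list, relative to the mean of B16F1 libraries 1 and 2, with B16F1-CXCL5 libraries at the left. S100a8 and S100a9 are 6.20 to 6.38 log2 units up in B16F1-CXCL5 libraries beside 2.36 and 2.46 for the neutrophil list. B16F1 library 3 is up by 2.13 for S100a9, 1.75 for S100a8 and 0.91 to 1.01 for S100a4, S100a6 and S100a16. The lists most up in that library are activated keratinocyte (2.03), skeletal muscle (1.61), keratinocyte (1.44), fibroblast (0.90) and adipocyte (0.79).

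Beside S100a8 and S100a9, the neutrophil list of 20 markers, which holds neither gene, summed to 133 and 143 FPKM in B16F1-CXCL5 libraries, against 25.5, 26.5 and 38.2 FPKM in B16F1 libraries. Of all 20, tested or not, 18 were higher in both B16F1-CXCL5 libraries than in every B16F1 library and 0 were lower, where 10.8% of all tested genes were higher and 15.6% lower in this way. Of the 16 tested, 6 passed as higher and 0 as lower, but 9 of the 16, and 3 of the 6, reached the filter of 1 FPKM in 2 libraries only through the B16F1-CXCL5 libraries, which tilts this count upward. The other 7 tested markers, with 2 or more B16F1 libraries at 1 FPKM, held the other 3 that passed, against 0.128% of all tested genes. The list was chosen with earlier results of these data known. Its most abundant members were Il1r2, the decoy receptor for interleukin 1, with 11.1 and 16.3 FPKM in B16F1-CXCL5 and 4.74, 6.12 and 14.8 FPKM in B16F1 libraries, and Retnlg, a resistin-like protein of neutrophils, with 20.7 and 26.3 FPKM in B16F1-CXCL5 and 1.71, 0.409 and 0.292 FPKM in B16F1 libraries. At most 1 of the 20 was listed at 0 in a B16F1-CXCL5 library, and 2 to 4 in a B16F1 library. The activated keratinocyte list, whose cells also make calprotectin, summed to 120 and 37.3 FPKM in B16F1-CXCL5 libraries, against 46.5, 103 and 281 FPKM in B16F1 libraries, which overlap. B16F1-CXCL5 library 1 was above B16F1 libraries 1 and 2, and B16F1 library 3 was the highest of its group for the list as for the pair. Of the 6 tested genes of the list 0 passed limma, also unadjusted, 6 had a negative log2 fold change and the median was -1.17. Krt16, a keratin of wounded epidermis, had 34.1 and 1.23 FPKM in B16F1-CXCL5 libraries, against 7.27, 21.96 and 76.1 FPKM in B16F1 libraries. The part of these cells in the values of the pair was not tested.

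The genes named as most like the pair were further from it than S100a8 and S100a9 were from each other. Likeness was the root mean square difference of log2(FPKM + 1) over the 5 libraries after centering, which was 0.14 between S100a8 and S100a9. Small RNA genes, predicted genes, genes with clone symbols and the other members were left out of this ranking. Among the remaining tested genes the 5 nearest were the same for both, in the order Cxcl5, Csf3r, Retnlg, Stfa2l1 and Niacr1. They lay at 0.93 to 1.45 from S100a8 and 1.04 to 1.43 from S100a9. With a difference this large between the groups, the measure mostly reflects the size of that difference, and 2 genes so close share neighbors. Within the B16F1 group, Cxcl5 and Retnlg were lowest in library 3, where the pair was highest. Csf3r, Stfa2l1 and Niacr1 were highest in that library. Csf3r, the receptor of granulocyte colony-stimulating factor, had 18.9 and 24.1 FPKM in B16F1-CXCL5 libraries, against 0.727, 0.777 and 1.06 FPKM in B16F1 libraries. Niacr1, the receptor for nicotinic acid, had 10.7 and 19.4 FPKM in B16F1-CXCL5 libraries, against 1.03, 1.17 and 2.69 FPKM in B16F1 libraries, and did not pass (limma adjusted p = 0.106).

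The other S100 genes were low or followed B16F1 library 3. Of 7 listed for the purpose, 2 were tested and 0 passed limma, also at an unadjusted p under 0.05. S100a14, an epithelial member in the same cluster, had 10.9 and 15.2 FPKM in B16F1-CXCL5 libraries, against 11.1, 14.1 and 33.2 FPKM in B16F1 libraries. S100a7l2, listed under its older symbol 9130204L05Rik, had 0.514 and 0.743 FPKM in B16F1-CXCL5 libraries, against 2.27, 0.389 and 6.37 FPKM in B16F1 libraries. Both were highest in B16F1 library 3. S100a3, the highest of the 5 genes below the filter, reached 0.442 FPKM at most. S100a7a, which lies 10308 nt from S100a8 in the cluster, was at 0.139 and 0 FPKM in B16F1-CXCL5 and at 0, 0 and 0.140 FPKM in B16F1 libraries. S100a2 was listed at 0 in every library. Of the S100-fused genes of the epidermal barrier, 6 of 7 were found, 2 were tested and 0 passed limma, again also unadjusted. Among these Flg2 had 1.80 and 3.50 FPKM in B16F1-CXCL5 and 1.75, 2.60 and 4.05 FPKM in B16F1 libraries, Hrnr stayed between 0.455 and 1.11 FPKM, and Rptn between 0.0208 and 0.328 FPKM.

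Among receptors and co-receptors of S100 proteins, 1 of 9 tested genes passed as higher, Cd33, and 0 as lower, where 0.128% of all tested genes were higher and 0.00798% lower. CD33, a sialic acid receptor of myeloid cells that binds S100A9 in humans, is encoded by Cd33, which had 3.25 and 3.60 FPKM in B16F1-CXCL5 libraries, against 0.641, 0.660 and 0.528 FPKM in B16F1 libraries (limma adjusted p = 0.033). It was below 1 FPKM in every B16F1 library, so it reached the filter only through the B16F1-CXCL5 libraries, where it is high. Bsg, which encodes the calprotectin receptor basigin, was the most abundant at 495 and 580 FPKM in B16F1-CXCL5 and 644, 501 and 561 FPKM in B16F1 libraries. Ly96, the co-receptor of TLR4, had 28.6 and 24.0 FPKM in B16F1-CXCL5 and 26.2, 25.8 and 20.96 FPKM in B16F1 libraries, and Cd36, a scavenger receptor, 15.2 and 9.45 FPKM in B16F1-CXCL5 and 12.1, 8.93 and 18.5 FPKM in B16F1 libraries. Tlr4 and Ager, which encodes RAGE, were named outside the rule as the receptors best known for calprotectin. Tlr4 had 14.1 and 11.74 FPKM in B16F1-CXCL5 and 11.68, 11.03 and 8.83 FPKM in B16F1 libraries. Ager had 1.16 and 2.04 FPKM in B16F1-CXCL5 and 0.993, 1.86 and 0.805 FPKM in B16F1 libraries. Neither passed, with 95% intervals of -0.08 to 0.63 and -0.41 to 0.88 log2 units. Of the 10 receptor genes found, 3 were higher without overlap between the groups, Cd33, Tlr4 and Cd14, and 0 were lower. Over all tested genes 10.8% were higher and 15.6% lower in this way. Cd14, also named outside the rule, had 12.5 and 6.12 FPKM in B16F1-CXCL5 libraries, against 4.15, 5.67 and 5.85 FPKM in B16F1 libraries, and did not pass.

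Of 15 tested intracellular partners 0 passed limma and 1 had an unadjusted p under 0.05, where 8.97% of all tested genes had one. Among the 15, 6 had a positive and 9 a negative log2 fold change, and the median was -0.04, against -0.01 over all tested genes. Anxa2, which encodes the partner of S100A10, had 384 and 535 FPKM in B16F1-CXCL5 and 562, 364 and 494 FPKM in B16F1 libraries. Capzb, an actin capping subunit, had 144 and 140 FPKM in B16F1-CXCL5 and 151, 147 and 152 FPKM in B16F1 libraries, and did not overlap. Anxa1, an annexin bound by S100A11, had 134 and 137 FPKM in B16F1-CXCL5 and 155, 121 and 166 FPKM in B16F1 libraries. Over all tested genes, 10.8% were higher and 15.6% lower without overlap between the groups, and among the 10 members 2 were higher and 0 lower.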

How the data were processed

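Poly(A) RNA of the tumors was sequenced on a HiSeq2000 from 5 strand-specific libraries, per the labels' protocols. The authors deposited 1 table of FPKM values for 23284 genes. The submitters' processing notes name Cufflinks 2.2.1, SAMtools 0.1.1.9, Bowtie 1.0.0, TopHat2 2.0.10 and FastQC 0.10.1, and GRCm38 (mm10) as the genome. Which annotation and strand setting were used, and whether libraries were rescaled, is not given in the sources used here. FPKM values are not counts, so no count model was used.

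Columns were matched to samples by title. A gene was tested if 2 or more libraries reached 1 FPKM, which left 12533 genes. The test was limma 3.58.1 (R 4.3.3) after a log2 transform with a pseudocount of 1, moderated with an intensity trend, at a threshold of 0.05 after Benjamini-Hochberg adjustment over all tested genes. All 10 members passed the filter, each with at least 1 FPKM in every library. The script was tested on simulated data. A fold change on this scale understates the change of low genes. Ratios between members were compared by an exact two-sided permutation test over 10 splits. The p-values measure the spread between these libraries, which may be technical. Depth was estimated from steps in the low values of 2811 genes that GENCODE M21 gives only 1 transcript, 800 to 6000 nt long. Coordinates and transcript lengths are from the same annotation.

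The 15 gene lists, which include the list of members, were chosen with earlier results of these data known. Of 164 symbols in the lists, 161 were matched, 2 of them through synonyms, and the other 3 are not analysed here. Named genes are the members, the passing genes and the 3 most abundant others of each S100-related list, the 2 most abundant of each marker list, and the 5 genes most like S100a8 and S100a9. Alternatives were 2 other pseudocounts (0.1 and 0.5), 2 other filters, no trend, library weights, a replicate block, 2 scalings, no small RNA genes and each library left out.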

Additional observations from a re-analysis of the deposited data

How the results depend on the processing

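The direction of S100a8 and S100a9 was the same, higher in B16F1-CXCL5 libraries, in all 15 alternatives, while the calls were not. For S100a8 the log2 fold change was 5.65 with a pseudocount of 0.1 (limma adjusted p = 0.0884) and 5.56 with a pseudocount of 0.5 (adjusted p = 0.0535). It was 5.46 both without a filter (adjusted p = 0.0945) and with the filter at a mean of 3 FPKM (adjusted p = 0.071), where it also missed the threshold. With 1 library left out it lay between 5.06 and 5.98. S100a9 passed with library weights at 5.55 (adjusted p = 0.0244), without small RNA genes at 5.38 (adjusted p = 0.0432) and with the replicate block at 6.01 (adjusted p = 0.000268), and lay between 4.96 and 6.01 with 1 library left out. The number of members called higher was 0 with either other pseudocount or either other filter, 2 with library weights, with the replicate block and without small RNA genes, and 0 to 2 with 1 library left out. The number of genes called, 17, became 8 at the pseudocount of 0.1, 7 at the mean filter of 3 FPKM, 39 without the trend, 31 with library weights and 46 with the replicate block. Leaving out 1 library gave 2 to 34, with 2 and 3 when a B16F1-CXCL5 library was the one left out and 11 and 34 when it was B16F1 library 2 or 3. The cause of these changes was not tested.

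Replicate numbers pair the libraries by number only. Same-numbered libraries had deviations from their group means that correlated at -0.028 for number 1 and -0.019 for number 2 over 12533 genes. In the block B16F1 library 3 has no partner, so the fold changes of the block equal those without that library. Its p-values likewise take no spread from B16F1 library 3, the most distant of its group for the pair. They rest on libraries 1 and 2 of each group, which are not known to be pairs. The difference in the S100a8 to S100a9 log2 ratio, 0.06, was -0.066 with the block and with B16F1 library 3 left out, and 0.17 at the highest with 1 library left out. The other members passed in none of the alternatives, and some changed sign. S100a4 ranged from -0.090 to 0.46 and S100a6 from -0.0019 to 0.52 with 1 library left out, S100a10 from -0.22 to 0.076, S100a13 from -0.088 to 0.047 and S100b from -0.27 to 0.17. S100a10 was also at 0.076 with the block, and S100a13 at 0.027 with equal sums and 0.021 with equal upper quartiles per library. S100a4 was at -0.090 and -0.021 when B16F1-CXCL5 library 1 or B16F1 library 1 was left out. The 16 ratios of the pair to other members, which restate the difference of the pair, and the share of the pair kept their direction throughout.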

Other observations

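S100a8 did not keep a fixed ratio to Csf3r, a receptor gene of neutrophils. The ratio of S100a8 to Csf3r FPKM was 18.8 and 15.9 in B16F1-CXCL5 libraries, against 5.26, 7.87 and 15.3 in B16F1 libraries 1, 2 and 3. B16F1 library 3 was thus near the B16F1-CXCL5 libraries on this ratio, with a Csf3r level of 1.06 FPKM. The sum of S100a8 and S100a9 was 5.03 and 5.08 times the sum of the 20 neutrophil markers in B16F1-CXCL5 libraries. In B16F1 libraries it was 0.286, 0.415 and 0.896 times that marker sum. The B16F1 marker sums of 25.5, 26.5 and 38.2 FPKM included Il1r2 at 4.74, 6.12 and 14.8 FPKM, a gene that overlapped between the groups. Set against Csf3r alone, the sum of the pair was 35.5 and 30.1 times in B16F1-CXCL5 libraries. The same ratio was 10.02, 14.2 and 32.3 in B16F1 libraries 1, 2 and 3, so the groups overlapped. These ratios were computed after the values were seen, and no test was run on them.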
